A study of Mus musculus with 6 samples.

Results

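The spiral ligament fibrocyte genes are a set of 8 genes, Coch, Otos, Otor, Pou3f4, Tbx18, Dcn, Lum and Cav1, that stand for the connective tissue behind the stria vascularis in the cochlear lateral wall. All probe sets assigned to exactly 1 gene symbol in the platform annotation, with that symbol among the 8, were taken. This gave 11 probe sets of 45037 tested, and 8 genes of 18193. Connexins, which fibrocytes share with strial basal cells, were left out of the set.

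RNA came from 6 pools of mouse stria vascularis, 3 from Errb mutant mice and 3 from wild-type mice, and each pool was hybridised to 1 Affymetrix array. The gene called Errb in the labels, also Nr3b2, is Esrrb, the gene of estrogen-related receptor beta, a nuclear receptor with no known hormone. The mutants were made by a conditional knock-out strategy. The sources used here name neither the cells that delete the gene nor the deleted stretch, the strain or the mutant age, so the Esrrb probe sets are no check of the labels. Postnatal days 3 to 5 are stated for wild-type replicate 1 alone. Each pool held tissue of 10 mice, and the design text calls it inner ear where the sample labels say stria vascularis. Nothing beyond the replicate numbers tells whether the pools were independent, and p-values reflect no more than the spread among them.

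Fibrocytes of the spiral ligament take up potassium from perilymph and pass it through gap junctions towards the stria, whose marginal cells secrete it into endolymph. They also lay down the collagen-rich matrix that anchors the lateral wall. Members of the set cover both the secreted products of these cells and the transcription factors that form them from periotic mesenchyme. Dcn and Lum are made by connective tissue fibroblasts in general, and Cav1 is also a gene of endothelial cells, so these 3 are less particular to the ligament.

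None of the 8 genes passed the test of mutant against wild type. At an adjusted p of 0.05, 0 of the 11 probe sets passed, and the median difference of the 8 genes, mutant minus wild type, was -0.015 on the log2 scale, against 0.0036 over all genes. Differences ran from -0.52 for Otos to 0.26 for the less expressed probe set of Dcn. Otos was lower in the mutant in all 3 same-numbered pairs, and both probe sets of Dcn were higher in all 3. In bulk tissue, fewer cells of a type and less RNA per cell cannot be told apart.

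Values are RMA log2 expression values as deposited. Each difference is averaged over 3 pairs of arrays with the same replicate number, given ± SD (n = 3), and adjusted p-values are from limma with the replicate number as a block, adjusted by Benjamini-Hochberg over all 45037 probe sets. In that fit 0.0933% of all probe sets passed, 0.0822% lower and 0.0111% higher in the mutant, and 0 of the 11 member probe sets did. At an unadjusted p under 0.05 the fit held 3 of the 11, those of Otos and Dcn, against 7.18% of all probe sets. Without the pairing, 0.00666% of all probe sets passed and 0 of the 11, and at an unadjusted p under 0.05 there were 0.209% of all and again 0 of the 11. The genotypes did not overlap in 1.07% of all probe sets and overlapped in all 11 members. An exact permutation test of 1 gene could not go below p = 0.1 with 3 arrays per genotype, or below p = 0.25 when the sign is turned within 3 pairs.

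Fibrocyte signal was strong in tissue labelled as stria. On every array, 9 of the 11 probe sets lay at or above the 90th percentile of all probe sets. The other 2 were Otos, which ranged from the 65.3 to the 99.3 percentile, and the second Dcn probe set, between the 22.5 and the 38.3 percentile. A percentile describes the signal of a probe set and not the amount of its transcript. Array medians were 6.08, 6.94 and 6.38 in mutant replicates 1 to 3, against 6.07, 6.95 and 6.42 in wild-type replicates 1 to 3. The deposited levels thus differ between replicate numbers in both genotypes.

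Promoter windows from RefSeq (build GRCm38.p6), from 250 bases before to 50 after a gene's start, were matched for 6 of the 8 members, with 7 windows in all, and Dcn and Lum were not matched. They were searched on both strands for the element that estrogen-related receptors bind, TNAAGGTCA, for its core AAGGTCA and for the nuclear receptor hexamer AGGTCA, which lies within both. Because the set holds a POU and a T-box factor, the POU octamer ATGCAAAT and the T-box core AGGTGTGA were searched too. None of these letters occurred in the 7 windows. Of 32841 windows of the same length, 1.28% held TNAAGGTCA, 4.72% AAGGTCA, 16.3% AGGTCA, 1.74% ATGCAAAT and 1.28% AGGTGTGA. The 2 windows below belong to the member with the largest difference, Otos (chr1:92648792-92649091, minus strand), and to the member with the narrowest interval, Otor (chr2:143078143-143078442, plus strand). They are in lower case throughout because capitals would mark a match.
Otos: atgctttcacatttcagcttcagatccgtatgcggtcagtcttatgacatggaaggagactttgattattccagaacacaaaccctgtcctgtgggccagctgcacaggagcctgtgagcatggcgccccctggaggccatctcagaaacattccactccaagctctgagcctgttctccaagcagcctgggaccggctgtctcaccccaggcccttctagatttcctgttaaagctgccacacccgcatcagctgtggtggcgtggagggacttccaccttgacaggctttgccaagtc
Otor: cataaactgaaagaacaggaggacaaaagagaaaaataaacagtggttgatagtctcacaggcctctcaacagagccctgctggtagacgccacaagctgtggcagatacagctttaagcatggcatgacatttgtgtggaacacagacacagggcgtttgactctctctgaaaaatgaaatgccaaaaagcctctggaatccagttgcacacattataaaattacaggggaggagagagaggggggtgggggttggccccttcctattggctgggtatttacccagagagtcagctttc
The Otos window is 55% and the Otor window 47.3% G and C.

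Coch, Otor and Otos encode secreted products of the fibrocytes, and none of them passed. Coch, on chromosome 12, encodes cochlin, an abundant matrix protein of the inner ear whose human gene is mutated in a dominant hearing loss. Coch (1423285_at) had values of 9.81, 11.29 and 11.00 in mutant replicates 1 to 3, against 9.96, 11.10 and 10.98 in wild-type replicates 1 to 3. The genotypes overlapped fully, and both arrays of replicate 1 were the lowest of their genotype. The difference was 0.022 ± 0.17 (adjusted p = 0.953), with a 95% interval of -0.20 to 0.25, or 0.869-fold to 1.19-fold. Without replicate 2 it was -0.064, with the sign turned.

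Otor, on chromosome 2, encodes otoraplin, a small secreted protein of the melanoma inhibitory activity family. Otor (1425083_at) read 13.16, 14.20 and 13.96 in mutant replicates 1 to 3, against 13.10, 14.23 and 13.92 in wild-type replicates 1 to 3. These were among the brightest signals on every array, at or above the 99.9 percentile. The arrays of a pair lay within 0.062 of each other. The largest value on any array was 14.6, and the part of saturation in this closeness was not tested. The difference was 0.023 ± 0.048 (adjusted p = 0.931) and its 95% interval ran from -0.15 to 0.19, or 0.904-fold to 1.14-fold.

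Otos, on chromosome 1, encodes otospiralin, a small protein secreted by fibrocytes and needed for normal hearing in mice. Otos (1426193_at) had values of 6.91, 10.52 and 11.23 in mutant replicates 1 to 3, against 7.35, 10.62 and 12.25 in wild-type replicates 1 to 3. The mutant array was lower in each pair, while the genotypes overlapped widely because the replicates of both spread over more than any difference between them. The pair differences were -0.44, -0.11 and -1.02, a mean of -0.52 ± 0.46 or 0.696-fold (unadjusted p = 0.030, adjusted p = 0.629). With the pairing the 95% interval was -0.97 to -0.074, and without it -3.16 to 2.12. Of all probe sets, 8.41% were lower in the mutant in all 3 pairs, and Otos was the 1 member probe set of 11 that was. Without replicate 3 the difference was -0.27. The 3' minus 5' difference of the Actb control probe sets, a sign of RNA quality, was 1.35, 0.47 and 0.49 in mutant replicates 1 to 3, against 1.01, 0.52 and 0.18 in wild-type replicates 1 to 3. It was larger in the mutant in pairs 1 and 3, where Otos differed most, and not in pair 2. The Gapdh control probe sets had the same direction in each pair. The part of RNA quality in the Otos difference was not tested.

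**Figure D1:**
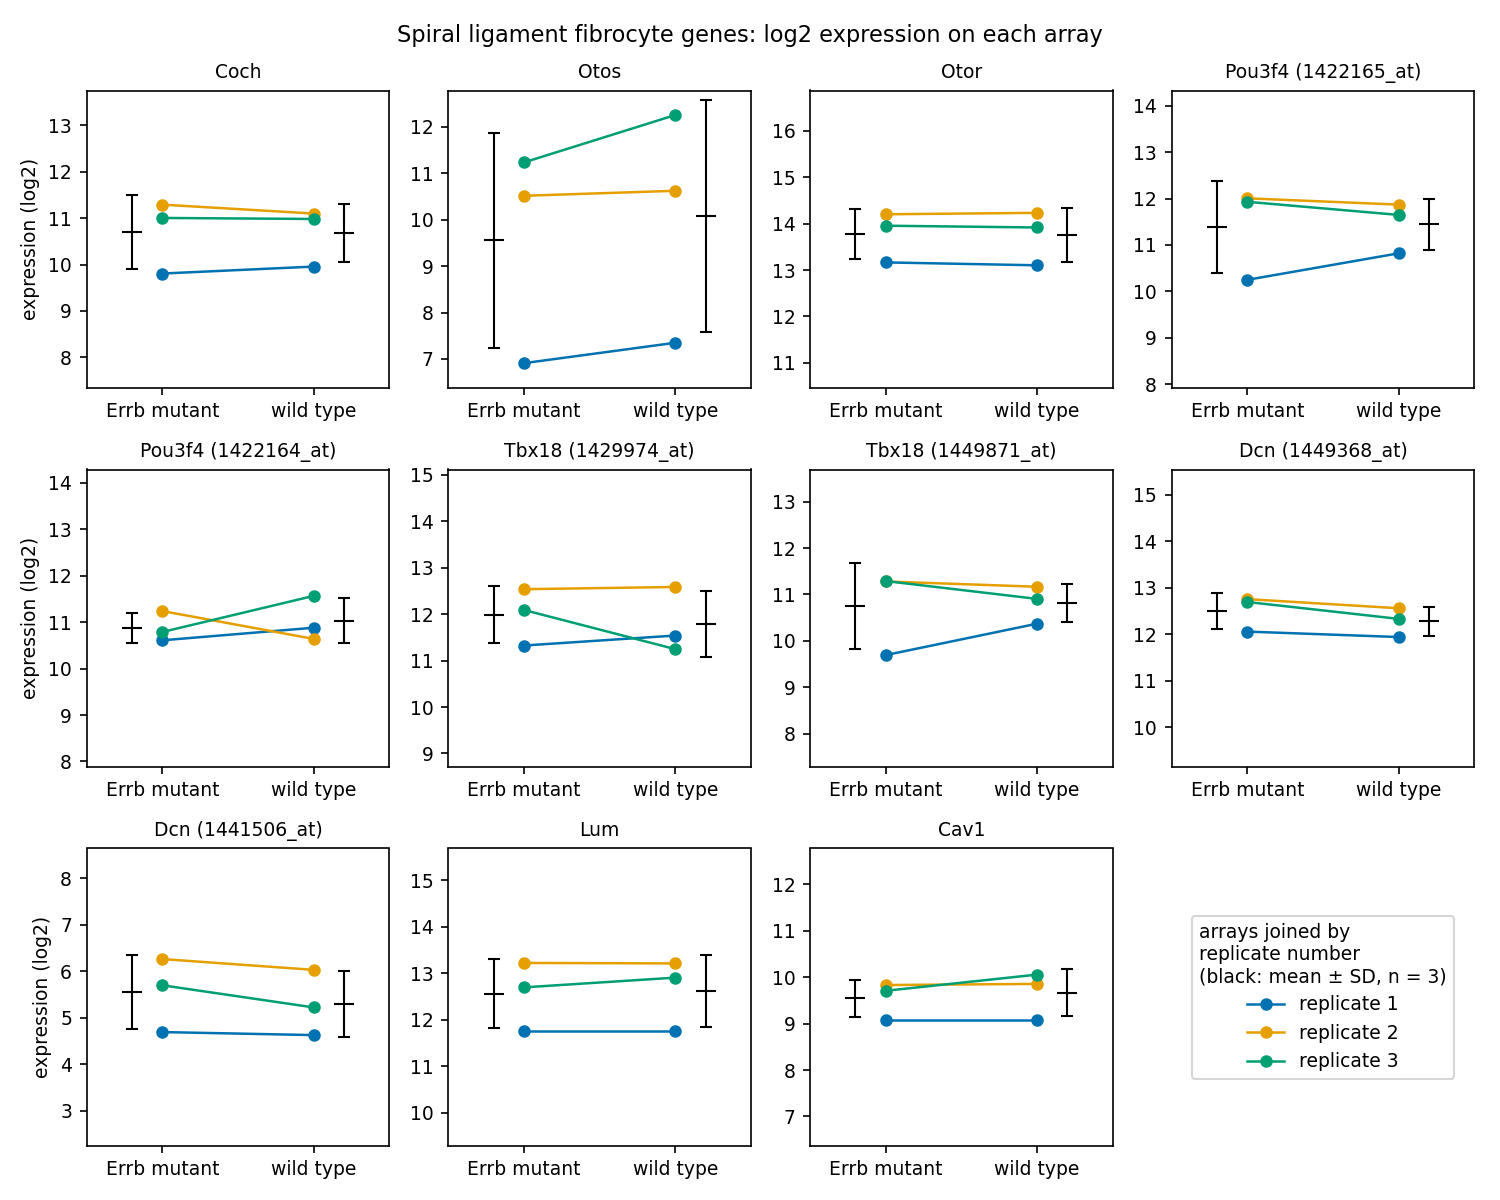
Log2 expression of the 11 member probe sets on each array, Errb mutant at the left and wild type at the right of each panel, with same-numbered arrays joined and black bars for the mean ± SD of 3 arrays. All panels span the same number of log2 units. The genotypes overlap in all 11 panels, and Otos spreads from 6.91 to 11.23 in the mutant and from 7.35 to 12.25 in wild type.

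Otos was lower in replicate 1 than in replicates 2 and 3 by more than nearly all other probe sets. With each array centred on its median, replicate 1 minus the mean of replicates 2 and 3 was -3.39 in the mutant and -3.47 in wild type, a 10.8-fold gap over both genotypes. This gap compares arrays of different pairs, and the part of any separate processing of the pairs, in its size or in its likeness between the genotypes, was not tested. Only 4 of 45037 probe sets had a gap as low or lower, namely 1 each for Csrp1, Capzb, Bsg and Gdi2, genes picked here after their values were seen. The 9 other probe sets of Csrp1, Capzb and Gdi2 had gaps from -2.74 to 0.30, while Bsg and Otos had no second probe set to compare.

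The other members showed far smaller gaps. Averaged over the genotypes, they ranged from -0.73 for 1 probe set of Pou3f4 to 0.28 for the other, inside the range of -0.92 to 0.78 that held the central 90% of all probe sets, and 9 of the 11 gaps were below 0. Replicate 1 also stood apart in the Gapdh control probe sets, whose 3' minus 5' difference was 2.57, 0.16 and 0.51 in mutant replicates 1 to 3, against 2.28, 0.21 and -0.045 in wild-type replicates 1 to 3. The part of RNA quality in this gap was not tested either. Age, dissection and processing of the replicate 1 pools cannot be told apart from their replicate number.

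**Figure D2:**
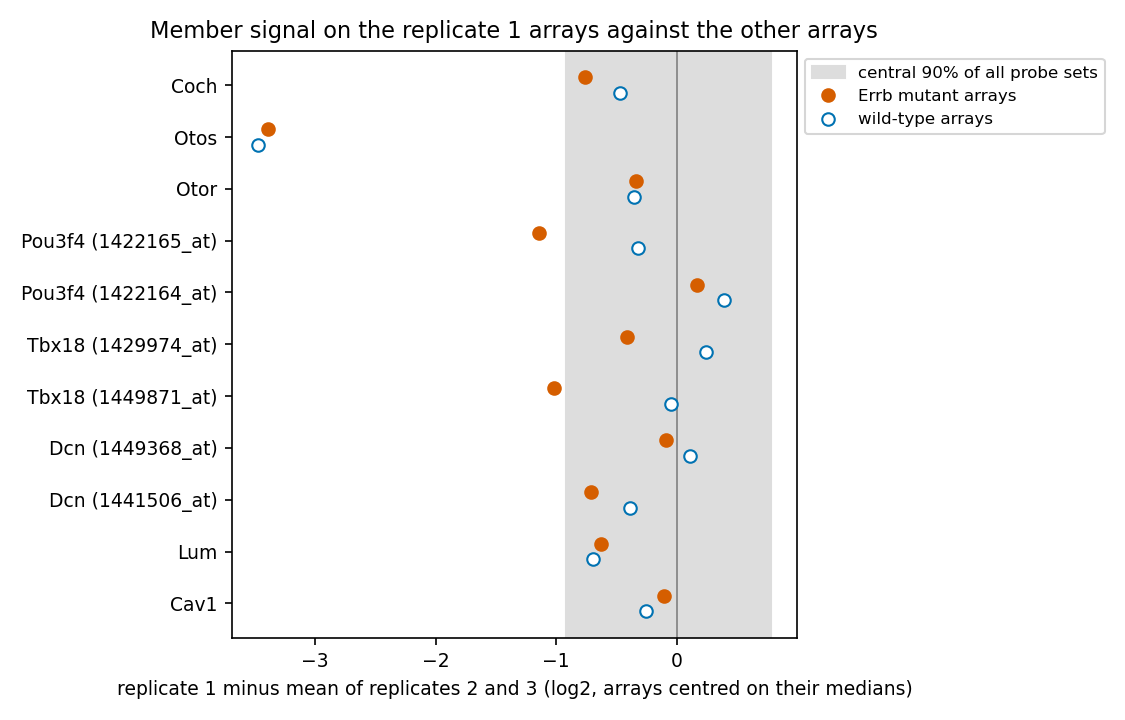
Gap between the replicate 1 array and the mean of replicates 2 and 3 for each member probe set (log2, arrays centred on their medians), with filled points for Errb mutant arrays and open points for wild-type arrays. The grey band spans the gaps, averaged over the genotypes, of the central 90% of all probe sets, from -0.92 to 0.78, which is no range for single points, and both Otos points lie far to its left at -3.39 and -3.47.

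Pou3f4 and Tbx18 encode the transcription factors of the set. Pou3f4, on the X chromosome, is a POU domain factor of otic mesenchyme whose loss causes deafness in mice and people. Its better expressed probe set, 1422165_at, read 10.25, 12.00 and 11.93 in mutant replicates 1 to 3, against 10.82, 11.87 and 11.65 in wild-type replicates 1 to 3. The mutant was lower in pair 1 and higher in the other pairs, and the genotypes overlapped. The difference was -0.051 ± 0.46 (adjusted p = 0.943), with a 95% interval of -0.49 to 0.39. Without replicate 1 it was 0.21, with the sign turned.

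The second Pou3f4 probe set, 1422164_at, read 10.61, 11.24 and 10.79 in mutant replicates 1 to 3, against 10.88, 10.64 and 11.57 in wild-type replicates 1 to 3. Its pair differences of -0.27, 0.60 and -0.78 had the sign of the first probe set in pairs 1 and 2 and the opposite sign in pair 3, where the first gave 0.28. The mean was -0.15 ± 0.70 (adjusted p = 0.885), with the widest interval in the set, -0.80 to 0.50. Without replicate 3 it was 0.16, with the sign turned.

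Tbx18, on chromosome 9, encodes a T-box factor that the otic mesenchyme of mice needs to form fibrocytes. Its better expressed probe set, 1429974_at, read 11.33, 12.54 and 12.09 in mutant replicates 1 to 3, against 11.54, 12.59 and 11.25 in wild-type replicates 1 to 3. Wild-type replicate 3 was the lowest of the 6 arrays, and the pair differences were -0.22, -0.047 and 0.84. The mean was 0.19 ± 0.57 (adjusted p = 0.822, 95% interval -0.35 to 0.73), and it was -0.13 without replicate 3, with the sign turned.

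The second Tbx18 probe set, 1449871_at, read 9.69, 11.28 and 11.29 in mutant replicates 1 to 3, against 10.37, 11.17 and 10.90 in wild-type replicates 1 to 3. The mutant was lower in pair 1 and higher in pairs 2 and 3. The mean difference was -0.059 ± 0.55 (adjusted p = 0.944, 95% interval -0.58 to 0.46), and 0.25 without replicate 1, with the sign turned. Both Tbx18 probe sets were lower in the mutant of pair 1 and higher in that of pair 3.

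Dcn and Lum encode decorin and lumican, small leucine-rich proteoglycans that bind collagen fibrils and set their spacing. The best expressed probe set of Dcn, 1449368_at, read 12.05, 12.75 and 12.69 in mutant replicates 1 to 3, against 11.94, 12.56 and 12.33 in wild-type replicates 1 to 3. Each mutant array was above its pair partner, and the genotypes overlapped. The difference was 0.23 ± 0.13, or 1.17-fold (unadjusted p = 0.033, adjusted p = 0.638), and the 95% interval was 0.027 to 0.42 with the pairing and -0.58 to 1.03 without it.

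The dim Dcn probe set, 1441506_at, read 4.69, 6.26 and 5.70 in mutant replicates 1 to 3, against 4.63, 6.03 and 5.22 in wild-type replicates 1 to 3. It had the same order within pairs, with differences of 0.065, 0.23 and 0.48 and a mean of 0.26 ± 0.21 (unadjusted p = 0.044, adjusted p = 0.689). In both Dcn probe sets the pair differences were smallest in pair 1 and largest in pair 3. Of all probe sets, 12.1% were higher in the mutant in all 3 pairs, and the 2 Dcn probe sets were the only members that were.

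Lum (1423607_at) read 11.75, 13.22 and 12.70 in mutant replicates 1 to 3, against 11.75, 13.21 and 12.91 in wild-type replicates 1 to 3. The arrays of pair 1 held exactly the same value, those of pair 2 differed by 0.011, and the mutant was lower by 0.21 in pair 3. The mean difference was -0.066 ± 0.12 (adjusted p = 0.832), with a 95% interval of -0.26 to 0.13, and 0.0053 without replicate 3. Lum is the neighbour of Dcn on chromosome 10, followed by the proteoglycan genes Kera and Epyc, which differed by -0.042 ± 0.10 and -0.055 ± 0.045. The 4 adjacent genes thus had no common direction, and none passed.

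Cav1, on chromosome 6, encodes caveolin-1, the coat protein of the flask-shaped membrane pits called caveolae. Cav1 (1449145_a_at) read 9.09, 9.83 and 9.71 in mutant replicates 1 to 3, against 9.09, 9.86 and 10.06 in wild-type replicates 1 to 3. The arrays of pair 1 were exactly equal, and most of the difference came from pair 3, at -0.35. The mean was -0.12 ± 0.19 (adjusted p = 0.762, 95% interval -0.36 to 0.12), and it was -0.012 without replicate 3. Exact equality within pair 1, seen in Lum and Cav1, occurred in 34.2% of all probe sets and in 2 of the 11 members. Equality within pair 2 or pair 3 occurred in 2.63% and 3.1% of all probe sets and in 0 of the 11, and equality within at least 1 pair in 37.3% of all. Cav2, the neighbour and partner of Cav1, gave the same order of pairs, with differences of 0.20, 0.062 and -0.63 and a mean of -0.12 ± 0.44. All 12 endothelial markers had differences below 0, from -0.42 to -0.016, against 8847 of 18193 genes. The pair medians of the endothelial markers were -0.30, -0.20 and 0.021. The summed signal of these markers (log2 of the sum) ranged from 11.12 to 12.43 in the mutant and from 11.49 to 12.51 in wild type, and none of the 12 passed. Their part in the Cav1 value was not tested.

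**Figure D3:**
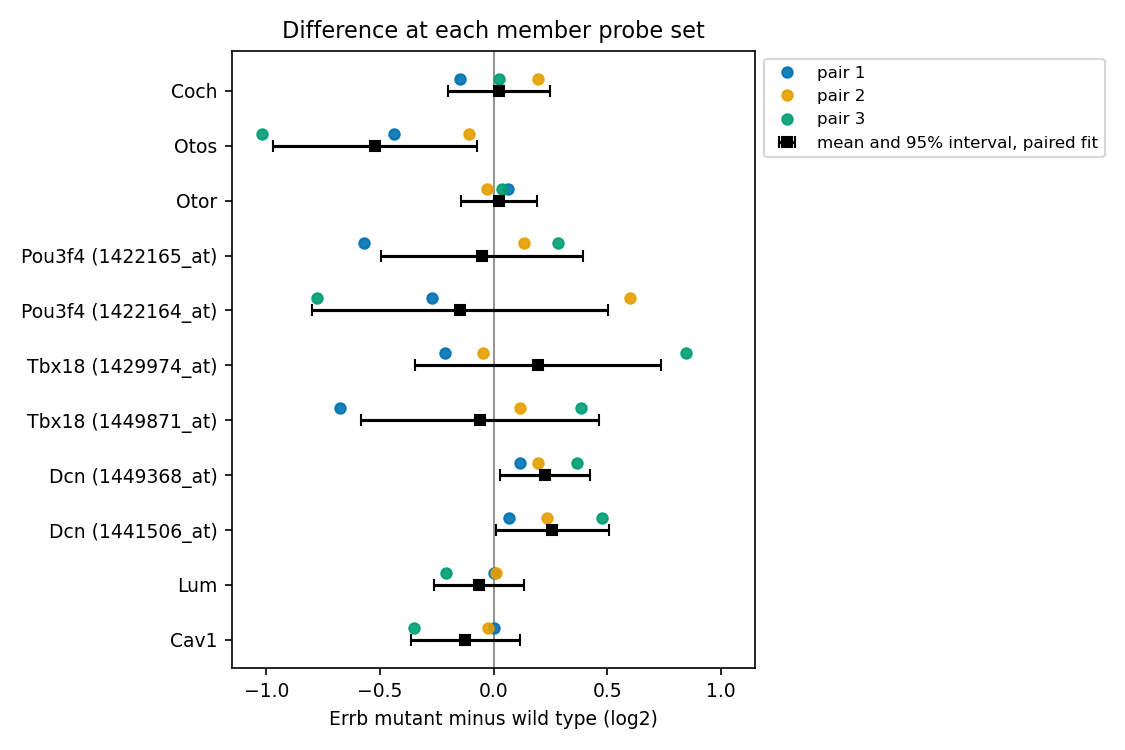
Errb mutant minus wild type (log2) at each member probe set, with black squares and bars for the mean and 95% interval of the paired fit and coloured points for the 3 pairs. The intervals of Otos (-0.97 to -0.074) and of both Dcn probe sets lie to one side of 0 before any adjustment over probe sets, and all others cross 0.

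The intervals bound how large a difference could be if the pairing holds. Whether the authors processed each pair separately is not stated, and its part in the narrow paired intervals was not tested. All 11 lay inside 2-fold in either direction (-1 to 1 on the log2 scale). Without the pairing 3 of the 11 did, since variation between replicate numbers then counts as error. Leaving out replicate 1, 2 or 3 put 10, 6 and 10 of the 11 inside that bound. For scale, Kcne1, the potassium channel subunit of marginal cells, differed by -4.32 ± 0.30 on the same arrays (adjusted p = 0.00373). Its mutant values of 5.51, 5.95 and 4.70 lay below the median of their arrays, and since signal over background is not given, the size of that difference is uncertain.

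Other genes of the fibrocyte and its matrix were each read at their brightest probe set by mean level. Of the 12 other small leucine-rich proteoglycan genes none passed, and their median was 0.024. Ogn, which encodes osteoglycin, read 12.04, 12.46 and 12.06 in mutant replicates 1 to 3, against 11.93, 12.28 and 11.93 in wild-type replicates 1 to 3, a difference of 0.14 ± 0.033 that its second probe set (-0.066) did not share. Omd, which encodes osteomodulin of mineralised tissue, differed most, by 0.41 ± 0.47. Aspn, the asporin gene, differed by -0.16 ± 0.21, and its second probe set by 0.18.

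Most fibrillar matrix genes had differences above 0, and none passed. Of 14 measured, 12 lay above 0, against 9346 of 18193 genes, and 9 were higher in all 3 pairs, against 12.9% of all genes. The median was 0.18 ± 0.093, with pair medians of 0.32, 0.14 and 0.27. Col1a1, a chain of type I collagen, read 11.02, 9.57 and 9.34 in mutant replicates 1 to 3, against 8.78, 9.42 and 8.85 in wild-type replicates 1 to 3. Mutant replicate 1 stood above all other arrays, and the difference was 0.96 ± 1.13 (adjusted p = 0.722), with 1.26 ± 1.21 at the second probe set. Tnc, the tenascin C gene, read 8.01, 8.89 and 8.90 in mutant replicates 1 to 3, against 7.60, 8.67 and 7.95 in wild-type replicates 1 to 3, a difference of 0.52 ± 0.38 (adjusted p = 0.540).

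The best expressed matrix genes, Col1a2 and Sparc, had smaller differences at their brightest probe sets. Col1a2, the partner chain of Col1a1, differed by 0.14 ± 0.059, with 0.12 and 0.44 at its other probe sets. Sparc, a collagen-binding glycoprotein gene, differed by -0.042 ± 0.14, with 0.070 and 0.034 at its other probe sets. In pair 1, where Col1a1 differed by 2.24, the bone matrix gene Ibsp differed by 3.85, against 0.16 and -0.068 in pairs 2 and 3. The Ibsp difference came from a low wild-type replicate 1, at 3.65, with mutant replicate 1 inside the range of replicates 2 and 3. The Col1a1 difference came from a high mutant replicate 1, at 11.02. The 10 cartilage and bone markers had a median of 0.075, and their median in pair 1 was 0. Their summed signal was 13.86 to 15.48 in the mutant and 13.95 to 15.42 in wild type. The part of bone in the collagen values was not tested.

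Among 15 other genes known from fibrocytes none passed, and the median was 0.016. Of them 4, Kcnk2, Car3, Tgfbi and Efnb2, were higher in all 3 pairs, against 12.9% of all genes. Another 2, Vit and Slc4a11, were lower in all 3 pairs, against 9.03% of all genes. Car3, the carbonic anhydrase III gene, read 13.39, 14.28 and 14.08 in mutant replicates 1 to 3, against 13.34, 14.24 and 14.04 in wild-type replicates 1 to 3. Its difference of 0.040 ± 0.0061 was nearly the same in each pair, and its other 3 probe sets differed by 0.046 to 0.13. Kcnk2, a background potassium channel gene, differed by 0.42 ± 0.33 (adjusted p = 0.596). Vit, which encodes vitrin, a matrix protein with domains related to those of cochlin, read 7.98, 10.34 and 9.51 in mutant replicates 1 to 3, against 8.60, 10.44 and 9.83 in wild-type replicates 1 to 3. Like Otos, Vit was lower in the mutant in every pair, by -0.35 ± 0.26 on average (adjusted p = 0.610). Vim, the intermediate filament gene of mesenchymal cells, differed by -0.028 ± 0.13, with 0.097 and 0.17 at its other probe sets.

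Relatives of Pou3f4 and Tbx18 did not pass either. The 11 POU class 3 and T-box genes had a median of -0.049. Pou3f3, the best expressed of them, differed by 0.044 ± 0.23, while its dim probe set differed by -1.20 ± 1.67. Tbx2 read 5.84, 8.50 and 7.86 in mutant replicates 1 to 3, against 7.76, 8.96 and 7.69 in wild-type replicates 1 to 3, and most of its mean of -0.74 ± 1.07 came from pair 1, at -1.91. Tbx3 differed by 0.41 ± 0.34 and Tbx1 by -0.17 ± 0.47, and the 5 probe sets of Tbx3 ranged from -0.24 to 0.41.

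The 12 mesenchyme transcription factors had a median of 0.11, with 0 passing. Foxd1 (0.48 ± 0.40), a forkhead factor, and Twist1 (0.33 ± 0.34), a basic helix-loop-helix factor of mesenchyme, had the largest differences. Foxc1 (-0.18 ± 0.24) and Foxc2 (-0.17 ± 0.76), forkhead factors of periocular and skull mesenchyme, were the best expressed. Foxc2 had pair differences of -1.04, 0.26 and 0.28.

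The 7 measured caveola coat genes had a median of -0.087, and 0 passed. Cavin2, a coat protein gene and the best expressed, differed by 0.10 ± 0.13, and Cavin3 differed most, by -0.28 ± 0.21. Cavin3 was the 1 gene of the list lower in all 3 pairs, against 9.03% of all genes. Another 2, Cavin2 and Cav3, were higher in all 3 pairs, against 12.9% of all genes. Cavin4, of muscle caveolae, differed by -0.17 ± 0.21.

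Markers of the neighbouring strial layers differed by more on the same arrays. Among 7 markers of marginal cells, Atp13a5, Slc12a2, Kcnq1 and Kcne1 passed as lower in the paired fit, 4 in all, against 0.132% of all genes. The list median was -1.40. Without the pairing Kcne1 passed (limma, adjusted p = 0.0071), and Atp13a5, Slc12a2 and Kcnq1 did not. Intermediate cell and melanocyte markers had a median of -0.68 with 0 of 9 passing, and basal cell markers -0.37 with 1 of 5, Gjb6, passing. Gjb6 did not pass without the pairing. Gjb6 (-1.27) and Gjb2 (-0.72) are connexins, which fibrocytes share, so they do not mark basal cells alone. The other basal cell markers differed by -0.37 (Cldn11), -0.18 (Slc2a1) and 0.043 (Tjp1). The difference between the medians of the strial layers and the -0.015 of the fibrocyte set was not tested. General fibroblast markers had a median of 0.087, with Pdgfra, the platelet-derived growth factor receptor gene of fibroblasts, at 0.018 and Gsn, the gelsolin gene, at -0.53.

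Other cell types gave medians of 0.48 for 8 neuron and Schwann cell markers, 0.12 for 10 macrophage markers, -0.098 for 8 pericyte and smooth muscle markers, -0.029 for 7 skeletal muscle markers and -0.26 for 3 red blood cell markers. None of these genes passed. The neuron and Schwann cell median was 1.08 in pair 1, the pair in which Pou3f4 1422165_at (-0.57) and Tbx18 1449871_at (-0.68) had their lowest differences, and 0.14 and 0.19 in pairs 2 and 3. Without replicate 1 the neuron and Schwann cell median was 0.19, and without replicate 2 or 3 it was 1.32 or 1.35. With a filter on level, which kept probe sets at or above the 40th percentile of mean level, it was 0.0063. Summed signal of that list was 12.27 to 12.68 in the mutant and 11.87 to 12.83 in wild type, and its part in those values was not tested.

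**Figure D4:**
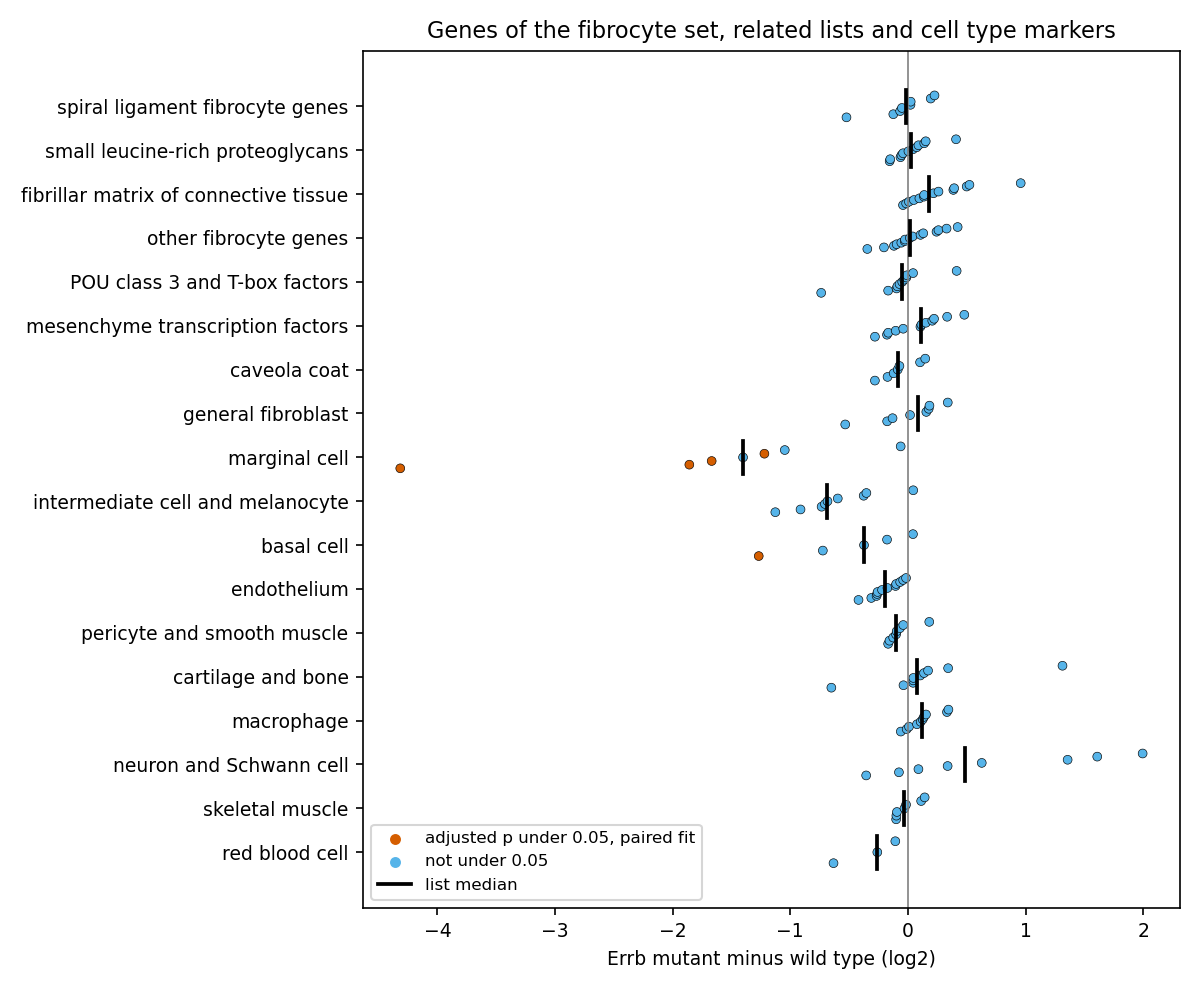
Errb mutant minus wild type (log2) of each measured gene, by its best expressed probe set, for the fibrocyte set, 6 related lists and 11 cell type marker lists, with orange points for genes that passed and black bars for list medians. The fibrocyte genes lie between -0.52 and 0.23 around a median of -0.015, and the marginal cell markers between -4.32 and -0.062 around -1.40.

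The genes whose pattern over the 6 arrays was most like that of Coch were found by Pearson correlation after each array's median was subtracted, among 9089 genes at or above the median level. They were Surf1 (r = 0.999), Ddx47 (0.998), Nap1l4 (0.997), Plod2 (0.997) and Colgalt2 (0.995). Surf1 encodes a cytochrome c oxidase assembly factor, Ddx47 an RNA helicase, Nap1l4 a histone chaperone, and Plod2 a lysyl hydroxylase of collagen. The 6 points share 3 replicate numbers, whose arrays move together, and 1241 of the 9089 genes had r above 0.9. Within the set, r with Coch was 0.956 for Otos, 0.948 for Pou3f4, 0.945 for Otor and 0.919 for Lum, and 0.628 for Cav1, 0.361 for Dcn and -0.011 for Tbx18.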

How the data were processed

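The authors deposited log2 values, 1 per probe set and array. RMA made them, as the submitters' processing notes state without a version or settings, and a range of 2.33 to 14.6 fits that scale. They were taken as deposited, without 64 control probe sets, and 34945 of the remaining 45037 had 1 gene symbol. The test was limma 3.58.1 under R 4.3.3 (lmFit, eBayes, two-sided), on all 45037 probe sets, with replicate number as a blocking term.

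The pairing comes from the replicate numbers in the labels. Same-numbered arrays deviated together from their genotype's mean, with correlations of 0.879, 0.818 and 0.746. Between mutant and wild-type arrays of different numbers the correlations ran from -0.65 to 0.12. Exactly equal values occurred for 15406, 1185 and 1398 probe sets within pairs 1 to 3 and for 0 between other mutant and wild-type arrays. Whether separate processing of the pairs raised the correlations within pairs was not tested.

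The members and lists were chosen with earlier results of these data known. A list gene was represented by its probe set with the highest mean; of 176 listed genes, 10 were not matched and 5 matched an older symbol. The rule named from each related list up to 4 genes that passed, the 2 best expressed and the 2 with the largest difference, and the 5 genes most like Coch. Promoter motifs, neighbours, markers and other genes were named after their values were seen. The code of the fits was tested on simulated data in which the pairing held by construction, so this says nothing about the pairing of the real arrays. The number of arrays limits the precision. Alternatives were no block, a filter on level, quantile normalization, median centring, eBayes options, array weights, leaving out each replicate number, leaving out probe sets marked as shared by several transcripts (suffixes _a_at, _s_at and _x_at), and averaging all probe sets of a gene.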

Additional observations from a re-analysis of the deposited data

How the results depend on the processing

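With no replicate block, 1 higher and 2 lower probe sets passed over the whole table, against 5 and 37 with it, and 8 higher passed with the trend and robust options of eBayes and 70 lower with array weights. Leaving out 1 replicate number gave 0 to 3 higher and 0 to 4 lower. No member probe set passed under any of these alternatives or any other that was run. The block leaves each mean difference as it is in this balanced design and changes its error alone. The eBayes options do so too, and list medians are then unchanged as well. The filter on level and the leaving out of marked probe sets change no difference of a probe set that is kept. Otos (-0.73 to -0.27), Otor (0.0038 to 0.050), both Dcn probe sets (0.16 to 0.28 and 0.15 to 0.35) and Cav1 (-0.19 to -0.012) kept their direction throughout. All pair differences of Otos and of each Dcn probe set had the same sign, and none of Cav1 was above 0. Leaving out a replicate number could therefore not turn their direction, and this agreement is no added support. Cav1 could not be tested without probe sets marked as shared by several transcripts, since its 1 probe set is marked for transcripts of the same gene, nor the dim Dcn probe set under the filter on level. The signs of the other members depended on the arrays used: leaving out 1 replicate number gave -0.064 to 0.11 for Coch, -0.22 to 0.21 and -0.52 to 0.16 for the Pou3f4 probe sets, -0.13 to 0.40 and -0.28 to 0.25 for those of Tbx18, and -0.10 to 0.0053 for Lum. With array weights the second Pou3f4 probe set gave 0.032, and the cause was not tested. The median of the member genes ran from -0.084 to 0.056 when 1 replicate number was left out. List medians kept their sign under all 11 alternatives except those of the member genes, all genes, other fibrocyte genes, mesenchyme factors, general fibroblasts and skeletal muscle. Signal over background is not given, which limits what the dim Dcn probe set shows.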
